A study of Homo sapiens with 3 samples.

Results

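Box C/D small nucleolar RNAs (snoRNAs) gave 725 distinct fragments read at 27 to 31 nt in 3 small RNA libraries of HEK293, an established line of human embryonic kidney cells. A fragment was defined by its snoRNA entry and its first and last position in that entry, and was included when a box C/D record of the sense strand had a read length in that range. The members were therefore chosen by read length, and their number is a description without a test. At all lengths, and with box H/ACA snoRNAs and scaRNAs included, the series held 8269 fragments. The libraries formed 1 group of untreated cells grown in Dulbecco's modified Eagle's medium with serum and antibiotics, and the series' title names the box C/D snoRNA U3 as a miRNA source. Nothing in the labels ties the libraries to separate cultures, so p-values measure only how these libraries differ from each other, which may be technical. Reads carried no molecular identifiers, so all intervals and floors given here cover counting error only.

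Box C/D snoRNAs are nucleolar guide RNAs that direct 2′-O-methylation of ribosomal RNA, and a few act in pre-rRNA cleavage instead. Each carries a box C near its 5′ end and a box D near its 3′ end, which are brought together in a terminal stem and bind the core proteins, and often a second, less conserved pair of boxes, C′ and D′, in its interior. The stretch just upstream of box D or D′ pairs with the target RNA. Most human members are cut from introns of host genes such as GAS5, SNHG1 and ribosomal protein genes, and shorter RNAs derived from them have been described in many small RNA libraries.

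Sequences of leading 27 to 31 nt fragments were read from the GENCODE 29 transcripts (GRCh38), 5′ to 3′, at the positions the files gave. They are shown because they are the leading fragments of 8 of the 10 snoRNAs with most such reads, with 2 further forms of SNORD44 and, for its 5′ side, SNORD57. The fragments of SNORD78, which led the class, and SNORD74 are described by position only. Capitals mark TGATGA, the core of box C, and CTGA, the core of box D, wherever these letters occur on the transcript strand.
SNORD44, positions 2 to 32: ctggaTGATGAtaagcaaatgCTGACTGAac
SNORD44, positions 1 to 28: cctggaTGATGAtaagcaaatgCTGAct
SNORD44, positions 2 to 28: ctggaTGATGAtaagcaaatgCTGAct
SNORD2, positions 36 to 65: CTGAaatgaagagaatactcattgCTGAtc
SNORD21, positions 2 to 29: CTGAaTGATGAtatcccactaaCTGAgc
SNORD29, positions 1 to 28: tttctaTGATGAatcaaactagctcact
SNORD77, positions 35 to 65: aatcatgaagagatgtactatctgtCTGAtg
SNORD105, positions 9 to 37: tctcaTGATGAacacatatgcctCTGAgc
SNORD49A, positions 42 to 71: ataaCTGAcgaagactactcctgtCTGAtt
SNORD27, positions 42 to 69: ttcaagtgatgtcatcttactaCTGAga
SNORD57, positions 1 to 29: tggaggTGATGAactgtCTGAgcCTGAcc

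These fragments lay within host genes. SNORD2 36 to 65 was placed at chr3:186784831-186784860 on the plus strand, in EIF4A2, a translation initiation factor gene. SNORD21 2 to 29 was placed at chr1:92837290-92837317 on the plus strand, in the ribosomal protein gene RPL5, and SNORD105 9 to 37 at chr19:10107659-10107687 on the plus strand, in PPAN. SNORD49A 42 to 71 was placed at chr17:16440077-16440106 on the plus strand, in LRRC75A-AS1, SNORD57 1 to 29 at chr20:2656939-2656967 on the plus strand, in NOP56, and SNORD27 42 to 69 at chr11:62855015-62855042 on the minus strand, in SNHG1. SNORD44, SNORD77, SNORD78 and SNORD74 all lie on the minus strand within GAS5 (chr1:173863900-173868882), a non-coding host gene, and SNORD29 lies on the minus strand within SNHG1 (chr11:62851988-62855914). No transcript of GAS5 had an exon over SNORD78 and none of PPAN over SNORD105, which were intronic. An exon of 4 of the 27 EIF4A2 transcripts overlapped SNORD2.

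The files hold positions and no read sequences, so each sequence rests on the entry starting at the first base of the gene. Of the 129 snoRNAs with such fragments, 117 had a sequence in the reference. For 62 the length in the files was that of the GENCODE gene, or of the RefSeq gene where both start at the same base. SNORD2, SNORD29, SNORD49A, SNORD27 and SNORD57 are among the 62. The lengths of SNORD44, SNORD21, SNORD77 and SNORD105 differed, so a shift of a few positions is possible in their sequences. No printed sequence occurred in another GENCODE snoRNA gene.

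Set inside its snoRNA, the fragment of SNORD44 took the 5′ part and that of SNORD2 an inner stretch ending just short of the 3′ end. The next sequences show the whole SNORD44, SNORD2 and SNORD29, with the fragment (2 to 32, 36 to 65 and 1 to 28) in capitals, because the fragments of SNORD44 and SNORD29 lay at the 5′ end and that of SNORD2 lay inside the snoRNA.
SNORD44, whole: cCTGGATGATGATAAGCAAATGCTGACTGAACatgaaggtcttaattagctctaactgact
SNORD2, whole: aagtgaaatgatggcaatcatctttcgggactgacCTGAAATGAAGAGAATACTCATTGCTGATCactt
SNORD29, whole: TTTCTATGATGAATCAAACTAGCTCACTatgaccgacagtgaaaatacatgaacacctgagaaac

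The 27 to 31 nt class took a small share of box C/D reads in libraries 1 and 3 and a larger one in library 2. It held 750 of 18532 sense box C/D reads in library 1 (4.05%, exact Clopper-Pearson 95% interval 3.77 to 4.34), 1331 of 11091 in library 2 (12.0%, 11.4 to 12.6) and 640 of 17168 in library 3 (3.73%, 3.45 to 4.02). The mean was 6.59% ± 4.69 (SD, n = 3), and 3.89% without library 2. The larger share of library 2 was not limited to this window, and library 2 was highest at each length from 18 to 41 nt. In libraries 1, 2 and 3 the shares were 0.502%, 1.23% and 0.810% at 18 nt. At 32 nt they were 0.410%, 0.884% and 0.344%. Library 2 was also the shallowest, with 11958 counts in all against 19989 and 19092. Whether depth has a part in the larger share was not tested. Main values are given for every library or also without library 2. No read of this length lay on the opposite strand.

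Within the window, 29 nt was the commonest length in libraries 1 and 2 and 28 nt in library 3. Just inside the lower limit, 123, 183 and 101 reads of 27 nt were counted in libraries 1, 2 and 3, against 86, 87 and 69 reads of 26 nt just outside it. At the upper limit there were 148, 245 and 99 reads of 31 nt and 76, 98 and 59 of 32 nt. The counts thus fell off on both sides in all 3 libraries. Of the 725 fragments, 701 also spanned 27 to 31 positions, with 2695 of 2721 reads. The others spanned 25 to 32 positions, since 14.4%, 7.59% and 13.8% of the reads had a length that differed from their span.

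**Figure D1:**
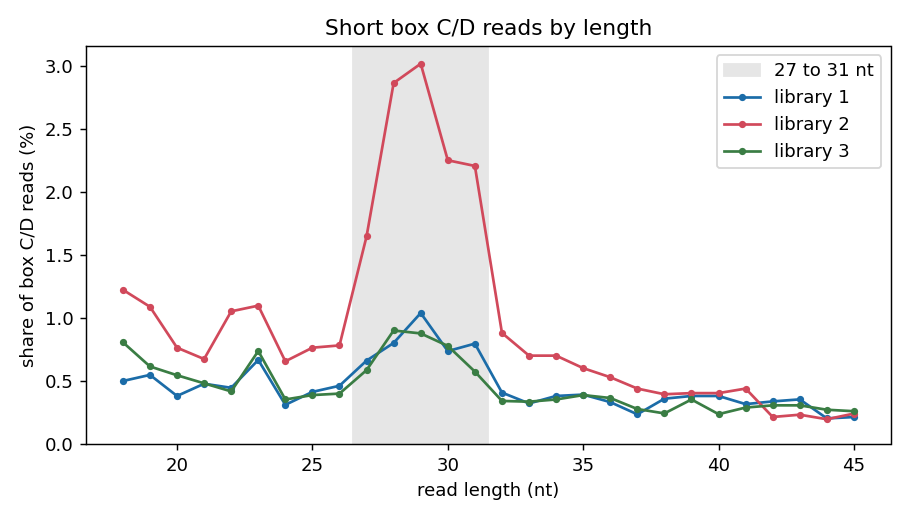
Share of box C/D reads (y axis, percent) at each read length (x axis, nt) in the 3 libraries, 1 line each; the grey band marks 27 to 31 nt. All 3 lines rise inside the band. Library 2, where the band holds 12.0% of reads, lies above the others within it and at the other lengths from 18 to 41 nt.

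Box H/ACA snoRNAs, the guides of pseudouridylation, had fewer reads of this length for their total. They gave 24 of 1298 reads in library 1 (1.85%), 18 of 597 in library 2 (3.02%) and 25 of 1739 in library 3 (1.44%), a mean of 2.10% ± 0.818 (SD, n = 3). The box C/D share was higher in each library, by 2.83-fold on average (log2 1.499 ± 0.44, SD, n = 3). As the window had been chosen on box C/D reads, the difference is given without a test.

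A few snoRNAs supplied a large part of the fragments. SNORD78, SNORD44 and SNORD2 together gave 32.8%, 57.4% and 36.4% of the 27 to 31 nt reads in libraries 1, 2 and 3 (42.2% ± 13.3, SD, n = 3), while they made up 11.6% ± 5.32 of all box C/D reads. The 10 leading snoRNAs held 59.2% of the 2721 reads and the 20 leading ones 70.7%. Among the rest the reads were thinly spread, and of the 146 box C/D snoRNAs with any sense read, 129 gave at least 1 read of this length, 79 of them in all 3 libraries, 26 in 2 and 24 in 1.

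SNORD78, a GAS5-hosted guide, ranked first with 110, 355 and 80 reads in libraries 1, 2 and 3. It took 17.9% ± 7.63 of the class (SD, n = 3), or 13.6% without library 2. Its fragments were also a large part of its own output, at 22.4%, 58.0% and 25.1% of 492, 612 and 319 SNORD78 reads. Library 2 thus stood well above the other 2, which lay close together.

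SNORD44, also encoded in GAS5 and used as a reference RNA in miRNA assays, gave 116, 244 and 69 reads, a share of 14.9% ± 3.81 (SD, n = 3). Of all SNORD44 reads, 18.8%, 36.1% and 14.7% fell in the class, again highest in library 2. Its share of the class fell to 7.12% at 28 to 30 nt, since its main form has 31 nt, and was then below the 12.5% of SNORD2. SNORD2, from an intron of EIF4A2, gave 20, 165 and 84 reads (9.40% ± 5.84, SD, n = 3). Its own reads were 3.02%, 24.6% and 16.1% in the class, so here library 1 stood low and libraries 2 and 3 high.

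The next 7 snoRNAs each took between 1.67% and 2.32% of the class. SNORD74, from GAS5, gave 10, 50 and 12 reads (2.32% ± 1.27, SD, n = 3), and SNORD77, from the same host, 5, 32 and 16. As shares of the class, SNORD74 was highest in library 2, and SNORD77 was similar in libraries 2 and 3 (2.4% and 2.5%) and low in library 1 (0.667%). SNORD21, from RPL5, gave 23, 36 and 6 reads and was lowest in library 3. SNORD29 and SNORD27, from SNHG1, gave 18, 12 and 19 and 12, 14 and 15 reads, without an excess of reads in library 2. As part of its own reads, however, SNORD27 was highest in library 2 (2.26%, 6.45% and 4.23%). SNORD29 was not (16.4%, 12.6% and 9.41%). SNORD49A gave 13, 18 and 13 reads, and its share of the class, 1.71% ± 0.34 (SD, n = 3), varied least among the 10. Of its own reads, 3.89%, 17.0% and 5.73% fell in the class, again highest in library 2.

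For SNORD105, encoded in PPAN, the class was the main product. It gave 18, 17 and 9 reads, out of 30, 23 and 11 SNORD105 reads of any length (73.9% in library 2 and 81.8% in library 3), and 1 near full-length read in all. Among snoRNAs with at least 30 reads, this mean of 71.9% was the highest, followed by SNORD50A with 58.5% (10 of 15, 16 of 18 and 2 of 10 reads). At the other end, the abundant SNORD100 had 12 of 1589 reads in the class, a mean of 0.722% ± 0.316 (SD, n = 3), and SNORD31, from SNHG1, 38 of 2058. The median over all 146 snoRNAs was 2.98%.

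snoRNAs with more reads tended to give more reads of the class. Across the 146 snoRNAs, the 27 to 31 nt reads and all reads of a snoRNA had a Spearman correlation of 0.729, which is a description, since both counts come from the same libraries and the first is part of the second. No read of the class was seen for 17 snoRNAs. The most abundant of these were HBII_82B with 236 reads, where 0 counts allow a share of up to 1.27%, SNORD53 with 145 (up to 2.07%) and SNORD14A, which acts in pre-rRNA processing, with 134 (up to 2.24%).

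Over all box C/D snoRNAs, fragments of this length came about equally from the 5′ and 3′ sides, judged by whether the middle of the read lay before or after the middle of the snoRNA. In library 1, 448 reads were on the 5′ side and 302 on the 3′ side, in library 2 568 and 762, with 1 on the midpoint, and in library 3 320 and 320. The 5′ share was thus 59.7% (95% interval 56.1 to 63.3), 42.7% (40.03 to 45.4) and 50% (46.1 to 53.9), with a mean of 50.8% ± 8.54 (SD, n = 3). Only library 1 had more 5′ reads, and the log2 ratio of 5′ to 3′ reads was 0.05 ± 0.50 (SD, n = 3; two-sided exact sign-flip permutation test over libraries, p = 1). That test cannot give a p below 0.25 with 3 libraries. The sign of this ratio turned to -0.21 without library 1, and it was 0.28 without library 2.

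Shorter and longer box C/D fragments leaned more to the 5′ side. Reads of 32 to 40 nt were 77.3%, 64.1% and 71.8% on the 5′ side (71.1% ± 6.62, SD, n = 3), above the 27 to 31 nt reads in each library. The 5′ to 3′ ratio of the 27 to 31 nt class was 2.41-fold lower than theirs, with a log2 difference of -1.27 ± 0.07 (SD, n = 3; lower in 3 of 3 libraries, exact sign-flip permutation p = 0.25, 0.312 after Benjamini-Hochberg adjustment over 5 such tests). Reads of 18 to 24 nt were 61.5%, 57.1% and 55.0% on the 5′ side, and the log2 difference from them was -0.41 ± 0.38 (SD, n = 3; 3 of 3 libraries, exact sign-flip permutation p = 0.25, adjusted 0.312). It was -0.22 without SNORD78, SNORD44 and SNORD2 and -0.24 with each fragment counted once, each negative in 2 of 3 libraries, and -0.20 without library 2. The gap to the 32 to 40 nt reads varied little between libraries, while that to the 18 to 24 nt reads varied nearly as much as its size. A p of 0.05 could not be reached with 3 libraries.

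Behind the even total, single snoRNAs gave fragments from 1 side. A side test was made for the 21 snoRNAs with at least 5 reads of the class in every library (edgeR quasi-likelihood test with library as block). It called 9 of them at an adjusted p of 0.05, 42.9% of those tested, of which 4 (19.0%) had more 5′ reads and 5 (23.8%) more 3′ reads. With no adjustment, 11 had a p under 0.05. A TMM-scaled library size for each side split the calls into 6 and 2 in place of 4 and 5. Without library 3 the same test called 0 of 30 snoRNAs, where adjusted p for these 9 ran from 0.101 to 0.145, and without library 2 it called 3 (SNORD44, SNORD2 and SNORD78). Without library 1 it called 9, 8 of them among these 9. DESeq2 on all 3 libraries called 12, 6 on each side.

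On the 5′ side, SNORD44 had 113, 240 and 67 reads against 3, 4 and 2 on the 3′ side, so the sides did not overlap in any library. Its log2 ratio of 3′ to 5′ reads was -5.49 ± 0.26 (SE; edgeR adjusted p = 1.04e-22), a 46.7-fold excess by the summed reads. SNORD105 had 18, 17 and 9 reads on the 5′ side and none on the 3′ side, at least 14.7-fold more against a floor of 3 counts over the libraries (edgeR adjusted p = 0.000468). SNORD21 had 22, 36 and 6 against 1, 0 and 0 (log2 ratio -5.52 ± 1.17, SE; edgeR adjusted p = 0.000136). SNORD57, a NOP56-hosted guide, had 9, 16 and 7 against 0, 2 and 1, and its call was the weakest (log2 ratio -3.34 ± 1.28, SE; edgeR adjusted p = 0.0290, and 0.0529 without library 1). The printed sequences of these 4 all include TGATGA, so each covers the box C of its snoRNA.

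On the 3′ side, SNORD2 had 17, 163 and 83 reads against 3, 2 and 1 on the 5′ side (log2 ratio 5.37 ± 0.30, SE; edgeR adjusted p = 2.40e-20, 43.8-fold by the summed reads). SNORD78 had 91, 281 and 63 against 19, 74 and 17, a smaller ratio that was alike in the 3 libraries (1.98 ± 0.15, SE; edgeR adjusted p = 3.11e-15, 3.95-fold). Its 5′ reads were thus the largest minor side among the 9 snoRNAs. SNORD77 had 4, 31 and 15 against 1 in each library (log2 ratio 3.65 ± 1.10, SE; edgeR adjusted p = 0.00646), and SNORD74 had 9, 47 and 9 against 1, 3 and 3 (2.87 ± 0.88, SE; edgeR adjusted p = 0.00646). SNORD49A had 11, 17 and 12 against 2, 1 and 1 (log2 ratio 3.20 ± 1.13, SE; edgeR adjusted p = 0.0182). SNORD77, SNORD74 and SNORD49A were not called without library 2 (edgeR adjusted p 0.481, 0.491 and 0.481) nor with the TMM sizes (0.150, 0.209 and 0.209).

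The 12 snoRNAs that were not called included some with uneven sides. SNORD29 had 40 reads on the 5′ side and 8 on the 3′ side (edgeR adjusted p = 0.0588), and SNORD81 2 and 24 (0.0712). SNORD27 had 6, 7 and 3 reads on the 5′ side and 6, 7 and 12 on the 3′ side, even in libraries 1 and 2 and uneven in library 3 (edgeR adjusted p = 0.612). Simulated differences of 16-fold among these 21 snoRNAs were found in 56.4% of cases and those of 4-fold in 8.57%, so a snoRNA without a call may still differ by as much.

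**Figure D2:**
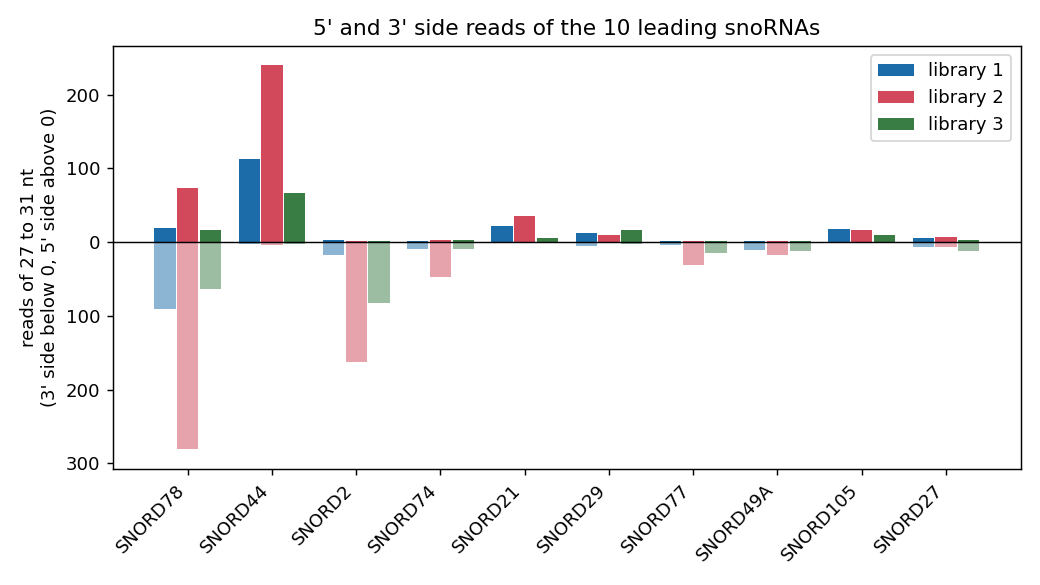
Reads of 27 to 31 nt on the 5′ side (bars above 0) and 3′ side (paler bars below 0) of the 10 snoRNAs with the highest mean share, 1 bar per library. SNORD44 bars point up and SNORD2 bars down in all 3 libraries, while SNORD78, with 435 reads below and 110 above, shows both.

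Most reads of the class shared 1 end with the snoRNA they came from. An end was counted as shared when it lay within 2 positions of the commonest end of near full-length reads, those covering at least 90% of the entry. For 7 snoRNAs without such a read, SNORD118 and U3 among them, with 73 reads of the class, the entry's own ends were used. Others had few such reads, among them SNORD105, SNORD71, HBII_108B and HBII_99B with 1 each and SNORD99 and SNORD69 with 2 each. The 5′ end was shared by 418, 549 and 281 reads, 55.7% (95% interval 52.1 to 59.3), 41.2% (38.6 to 43.9) and 43.9% (40.02 to 47.8) of the class in libraries 1, 2 and 3, with a mean of 47.0% ± 7.71 (SD, n = 3). The 3′ end was shared by 264, 565 and 217 reads, 35.2% (31.8 to 38.7), 42.4% (39.8 to 45.2) and 33.9% (30.2 to 37.7), with a mean of 37.2% ± 4.60 (SD, n = 3). Library 1 was highest for the 5′ end and library 2 for the 3′ end. Sharing the exact position was less frequent, at 27.96% ± 6.11 for the start and 29.8% ± 2.94 for the end (SD, n = 3). A read of this length is too short to share both ends.

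Against fragments of 32 to 40 nt, the class shared the 3′ end more and the 5′ end less. The longer reads shared the 5′ end in 64.5% ± 4.97 and the 3′ end in 21.5% ± 4.56 (SD, n = 3). Sharing of the 3′ end was 1.75-fold higher in the 27 to 31 nt class (log2 0.80 ± 0.18, SD, n = 3; 3 of 3 libraries, exact sign-flip permutation p = 0.25, adjusted 0.312). Sharing of the 5′ end was 1.38-fold lower (log2 -0.47 ± 0.13, SD, n = 3; 3 of 3 libraries, exact sign-flip permutation p = 0.25, adjusted 0.312). Reads of 18 to 24 nt lay close to the class, with 48.7% ± 2.24 and 33.5% ± 3.91 (SD, n = 3).

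**Figure D3:**
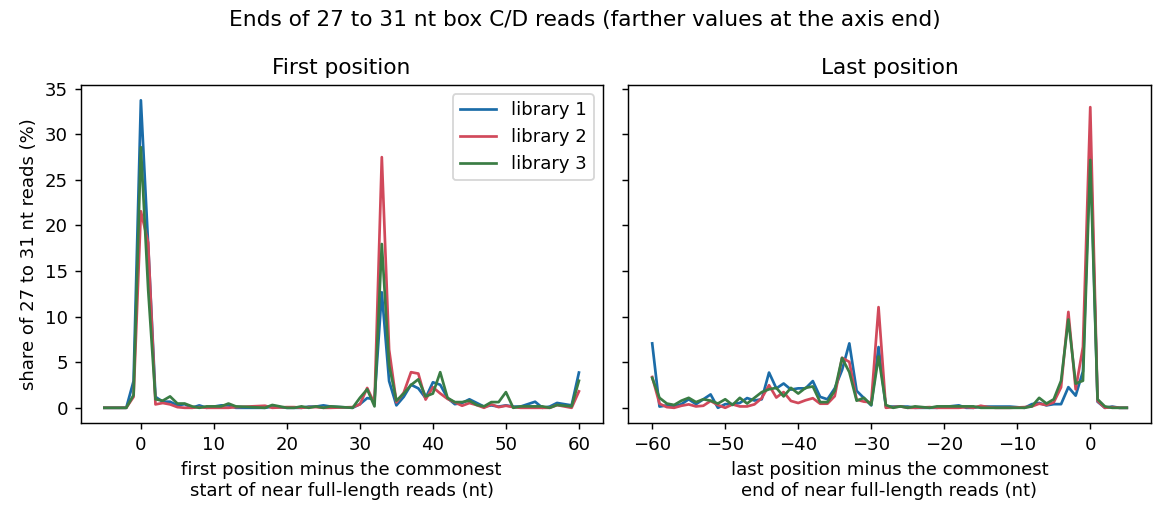
Share of 27 to 31 nt reads (y axis, percent) by the distance of their first position (left) or last position (right) from the commonest end of near full-length reads of the same snoRNA (x axis, nt), 1 line per library. On the left, libraries 1 and 3 are highest at 0 and library 2 at 33 (366 reads against 287 at 0), where the leading fragments of SNORD78 and SNORD2 begin, and on the right all 3 libraries are highest at 0; values beyond 60 are gathered at the axis end.

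Counted by snoRNA, the ends divided the same way. Of the 83 snoRNAs with at least 5 reads of the class, 39 had over 50% of them at the 5′ end, 32 at the 3′ end, 4 at neither and 8 had no such majority. The 4 were SNORD2 (257 of 269 reads), SNORD99 (19 of 22), SNORD25 (11 of 16) and SNORD71 (5 of 5). As the ends of SNORD99 and SNORD71 rest on 2 and 1 near full-length reads, their place among the 4 is uncertain. SNORD2 alone gave 257 of the 427 reads that shared neither end, and those 427 were 9.07%, 16.3% and 22.2% of the class in libraries 1, 2 and 3.

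Among the fragments that stopped short of the 3′ end, that of SNORD2 had the most reads. Near full-length SNORD2 reads ran most often from position 3 to 68, and its leading fragment ran from 36 to 65, so that it stopped 3 positions before the common end. In the printed whole sequence, the fragment ends 2 bases after the CTGA of box D and leaves off the rest of the stretch after it. It was read 12, 103 and 44 times in libraries 1, 2 and 3, which was 5.40% ± 3.32 of the class (SD, n = 3), and it was rare in library 1. Its neighbours 37 to 65 (1, 16 and 9 reads) and 36 to 64 (1, 16 and 8 reads) were also low in library 1. SNORD25 38 to 64 (2, 7 and 2 reads) also recurred in all 3 libraries, 3 positions short of the common end. SNORD99 45 to 71 (2, 4 and 5 reads) did as well, 7 positions before an end set by only 2 near full-length reads. That end lies 12 positions after the last CTGA. For 51 of the 52 snoRNAs of matching length with at least 20 near full-length reads, it lay 2 to 5 positions after. The SNORD99 fragment may thus not stop short of the 3′ end.

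The leading fragment of the whole class was SNORD78 35 to 63, with 64, 181 and 47 reads (9.83% ± 3.32, SD, n = 3). It ended at position 63, the common end of near full-length SNORD78 reads, which ran from 2 to 63. The fragments 35 to 62 (11, 42 and 5 reads) and 36 to 63 (11, 35 and 7) differed from it by 1 position. On the other side of the snoRNA, SNORD78 2 to 29 was read 12, 54 and 11 times and began at the common start. SNORD78 thus gave a recurrent fragment from each end, with 5 positions between them, and both were highest in library 2.

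SNORD44 gave fragments from its 5′ end with varied inner ends. The form 2 to 32 was read 49, 143 and 31 times (7.37% ± 3.04, SD, n = 3), 1 to 28 26, 33 and 8 times (2.40% ± 1.11) and 2 to 28 18, 30 and 12 times (2.18% ± 0.27). The last of these took a like share of the class in each library, while 2 to 32 was highest in library 2. As printed above, both inner ends lie at or just past CTGA letters within the snoRNA. SNORD21 2 to 29 (9, 31 and 6 reads) and SNORD29 1 to 28 (9, 9 and 14 reads) also began at the common start of their snoRNA and ended inside it. These 10 fragments, the 3 of SNORD78 from the 3′ side included, came from 5 snoRNAs and held 39.2% of all reads of the class.

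Below these 10, recurrent fragments came from 3′ ends as well as 5′ ends. SNORD74 40 to 68 was read 6, 26 and 7 times and SNORD77 35 to 65 2, 24 and 7 times, and each stopped at the common end of its snoRNA. SNORD49A 42 to 71 (6, 4 and 6 reads) and SNORD27 42 to 69 (4, 2 and 8) stopped there too. SNORD105 9 to 37 was read 12, 5 and 4 times and SNORD57 1 to 29 3, 9 and 4 times. These numbers are too small to rank the libraries.

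**Figure D4:**
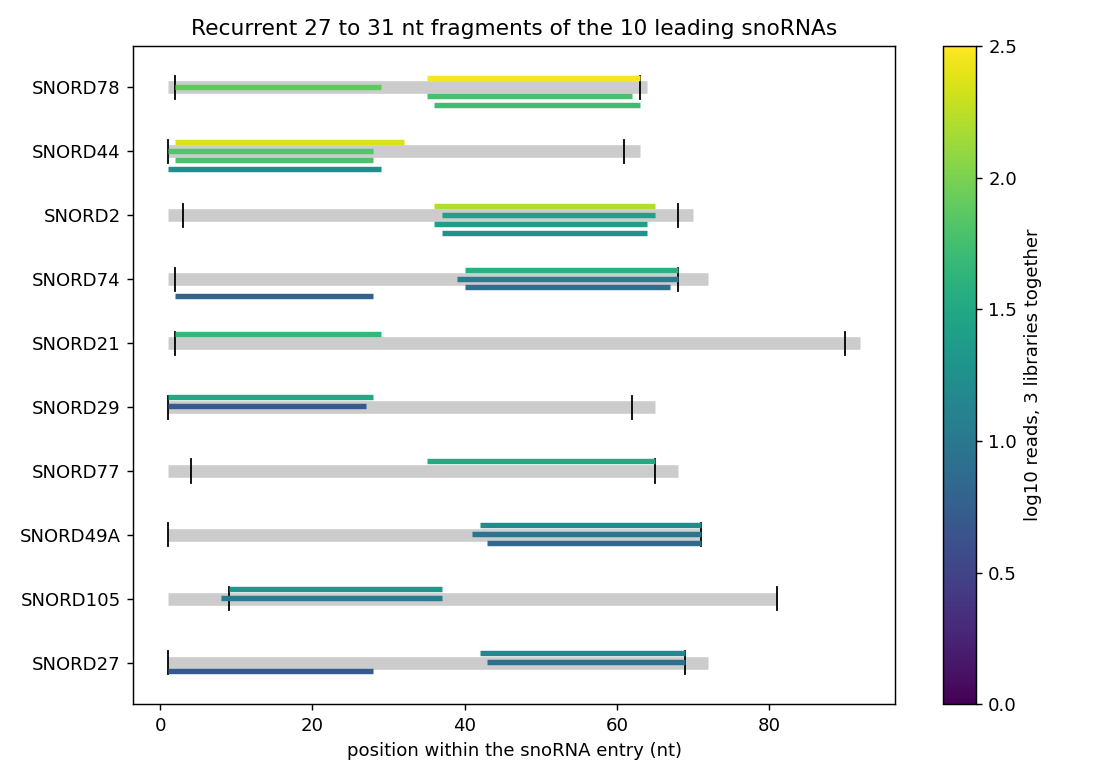
Recurrent fragments of the 10 snoRNAs with the highest mean share, drawn as lines from first to last position within the snoRNA entry (x axis, nt) and coloured by log10 of the reads in the 3 libraries together. Up to 4 fragments found in all 3 libraries are drawn per snoRNA over its grey entry, with ticks at the commonest ends of near full-length reads; SNORD44 and SNORD21 lines lie at the left, SNORD77 and SNORD49A lines at the right, and SNORD78 has both, with its brightest line at 35 to 63.

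How often the rest of the snoRNA was read as a second short RNA differed between snoRNAs. A remainder was counted when a read of at most 45 nt shared the opposite end of the snoRNA and stopped within 10 positions of the inner end of the fragment. It was set against fragment reads, those of at most 45 nt that shared the fragment's outer end and had their inner end within 3 positions. The allowance at the outer end was wider for 3′ fragments than for 5′ fragments. For SNORD78 35 to 63 there were 22, 81 and 20 remainder reads, most of them SNORD78 2 to 29, against 94, 288 and 65 fragment reads. For SNORD44 2 to 32 there were 3, 8 and 5 against 85, 180 and 43. SNORD21 2 to 29 could have no remainder by this count. The rest of that snoRNA is longer than 45 nt even with the 10 positions allowed. SNORD78 had a larger remainder than SNORD44 in all 3 libraries. Seen from its smaller 5′ fragment, 2 to 29, the remainder was larger than the fragment, with 91, 284 and 63 against 20, 74 and 17 reads.

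SNORD2 36 to 65 had 9, 5 and 6 remainder reads against 16, 165 and 86, and SNORD74 40 to 68 had 2, 0 and 1 against 11, 50 and 12. For SNORD27 42 to 69, with 26, 13 and 9 remainder reads against 8, 9 and 14, the 5′ part was read more often than the fragment in libraries 1 and 2. The summed remainder was also larger for SNORD31 40 to 67 (51 against 28 reads), SNORD24 1 to 30 (36 against 22) and SNORD38B 40 to 66 (34 against 28). SNORD49A 42 to 71 had 11, 2 and 7 against 11, 17 and 13. Whether such pairs come from 1 cut was not tested.

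Few fragments recurred, but those that did carried most reads. In all 3 libraries 69 of the 725 fragments (9.52%) were found, and they held 1693 reads (62.2%) from 37 snoRNAs. A further 126 (17.4%) were found in 2 libraries with 402 reads (14.8%), and 530 (73.1%) in 1 library with 626 reads (23.0%). Of all fragments, 471 rested on 1 read and could not recur, so recurrence depends in part on the number of reads. Within libraries 1, 2 and 3 the recurrent fragments made up 50.8%, 73.3% and 52.7% of the reads of the class, so their weight was greatest in library 2. By end, 31 of the 69 shared the 5′ end, 30 the 3′ end and 8 neither, against 344, 241 and 140 of all 725.

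Fragments found in 1 library were not all single reads. SNORD18A 42 to 70 had 8 reads in library 1 and 0 in the others, and SNORD67 3 to 29 and SNORD13 78 to 104 had 6 each in library 1. SNORD78 35 to 61, a shorter form of the leading fragment, had 7 reads in library 2. A count of 0 in another library allows up to 3 reads there.

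Sequence letters were counted over the 62 snoRNAs whose length matched the reference, which hold 992 of the 2721 reads (36.5%) and not SNORD78 or SNORD44. TGATGA and CTGA were searched on the transcript strand, and both match where CTGATGA occurs. Of 170 fragments that shared the 5′ end, 125 (73.5%) held TGATGA, against 13.0% of all 3205 windows of 29 nt in the same snoRNAs. All 126 fragments that shared the 3′ end held a CTGA within 10 positions of that end, against 11.5% of the windows. Box C and box D lie close to the ends, so fragments that share an end include them by position, and a match is a description of letters only.

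CTGA letters further inside the snoRNA, where a D′ box can lie, were found in 57 of the 170 5′ fragments (33.5%) and 25 of the 126 3′ fragments (19.8%), against 35.8% of the windows. The cut end inside the snoRNA lay within 10 positions of such a CTGA for 70.6% of the 5′ fragments, and for 57.4% of all pieces of the same lengths taken from the 5′ ends of these snoRNAs. For 3′ fragments the values were 53.2% and 36.5%. The share of fragments counts a snoRNA once for each of its fragments, while that of pieces gives all 62 snoRNAs equal weight. The gap between these shares was not tested. SNORD57 1 to 29, for example, ends 2 bases after its second CTGA, and SNORD29 1 to 28 holds none.

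The 10 GAS5-hosted snoRNAs gave more of the class than of box C/D reads in all. All 10 had reads of 27 to 31 nt, 9 of them in all 3 libraries, and together they took 35.9%, 53.9% and 30.9% of the class (40.2% ± 12.1, SD, n = 3, and 33.4% without library 2). Their share of all box C/D reads was 14.9% ± 4.67. Most of their part of the class was SNORD78 (17.9%) and SNORD44 (14.9%). The median GAS5-hosted snoRNA had 11.5% of its own reads in the class, against 2.98% over all 146. SNORD75, SNORD76 and SNORD80 lay below that value, with 1.32%, 2.06% and 1.78%, and the others above it. Besides SNORD78, SNORD44, SNORD74 and SNORD77, the members SNORD81 (6, 11 and 9 reads) and SNORD79 (5, 11 and 5) were present throughout, and SNORD80 was read 7, 10 and 0 times.

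The 8 SNHG1-hosted snoRNAs took 7.22% ± 1.96 of the class (SD, n = 3; 8.35% without library 2), compared with 10.2% ± 1.67 of all box C/D reads. All 8 gave such reads, 6 of them in all 3 libraries, and their median share of own reads was 4.14%. Both host genes are themselves non-coding. The GAS5 list, with most of its reads of the class on SNORD78 and SNORD44, took a larger part of the class than of all box C/D reads. The SNHG1 list took a smaller one. The difference between the lists was not tested.

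Of the 6 snoRNAs of pre-rRNA processing, 5 gave such reads, 2 in all 3 libraries, with 2.77% ± 1.43 of the class (SD, n = 3; 3.60% without library 2) against 2.03% of all box C/D reads. Their median share of own reads was 4.79%, against 2.98% over all snoRNAs. SNORD118 (U8) gave 106 to 136 with 6, 3 and 1 reads and 51 to 77 with 0, 1 and 7. U3, which the series' title names, gave 5, 5 and 9 reads of this length, and its fragment 190 to 217 had 0, 3 and 3. Neither was concentrated in a fragment with many reads.

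Of 12 snoRNAs used as reference RNAs in miRNA quantification, 11 had reads of the class, 9 in all 3 libraries, with 21.3% ± 2.45 of it (SD, n = 3) against 15.5% ± 1.22 of all box C/D reads. Most of that was SNORD44, and their median share of own reads, 2.74%, was close to the 2.98% over all snoRNAs. The 5 snoRNAs for which processed fragments have been described took 33.3% ± 11.1 (SD, n = 3; 27.2% without library 2), nearly all on SNORD78 and SNORD44. Their share of all box C/D reads was 8.76% ± 4.03 (SD, n = 3). The others were read little, with 2, 2 and 2 reads for SNORD75, 0, 4 and 0 for SNORD93 and 0, 1 and 2 for SNORD88C.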

How the data were processed

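Small RNA of HEK293 cells was extracted with phenol and chloroform, purified on magnetic beads and made into libraries (Ion Total RNA-Seq Kit v2), per the labels' protocols. The deposited files hold raw counts: each record gives an entry, a read length, a first and a last position and the number of reads, as judged from the values and per the file headers. The submitters' processing notes name GRCh38.p10 as the genome build. Aligner, trimming and read filters were not given in the sources used here. Another deposited table has 3 per-sample columns without lengths or positions, which were not used. Libraries were numbered in deposition order and formed 1 group with 19989, 11958 and 19092 counts.

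Records of box C/D entries with lengths of 27 to 31 nt and a last position not below the first were pooled by entry, first and last position. Of 147 entries, 139 were named through RefSeq symbols, 6 had no match and 2 (U3 and U3_2B) had several, so that these 8 kept the file's name. An entry's length was the highest position seen. Shares were averaged over libraries with equal weight, with exact (Clopper-Pearson) 95% intervals, and log2 ratios went through an exact permutation test over libraries (sign-flip, two-sided). Side counts per snoRNA entered the quasi-likelihood test of edgeR 4.0.16, blocked by library (both sides sharing 1 library size, at least 5 reads in every library, Benjamini-Hochberg at 0.05), and DESeq2 1.42.0 was an alternative. On simulated counts for 21 snoRNAs, 0% of calls were false at 16-fold and 7.69% at 4-fold. Computations ran in R 4.3.3 and in Python 3.11.15 with SciPy 1.17.1, NumPy 2.4.6 and pandas 2.3.3, and plots in matplotlib 3.10.9.

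The members and the lists of snoRNAs were chosen with earlier results of these data known, and the lists are not independent evidence. Named were the 10 snoRNAs and 10 fragments with the highest mean share, up to 5 snoRNAs per side with the largest ratio among those called, and up to 4 members of each list. Others in the text were chosen after their values were seen, among them SNORD50A, SNORD100, HBII_82B, SNORD53, SNORD99, SNORD25, SNORD71, SNORD18A, SNORD67, SNORD81, SNORD79, SNORD80 and SNORD93, and the fragments below the leading 10. Alternatives covered the length window, gapped reads, the end tolerance, the definition of ends and sides, each library left out, the count minimum, library size, tool and block.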

Additional observations from a re-analysis of the deposited data

How the results depend on the processing

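Depth limits these results, since the class held 750, 1331 and 640 reads, and 6 of the 9 side calls rest on under 100 reads each. The even 5′ to 3′ balance (log2 0.05) changed sign at 28 to 30 nt (-0.43), with reads whose length equals their span (-0.019) and on leaving out a library (-0.21 to 0.28). The cause was not tested. Sharing of the 3′ end (37.2%) was 43.0% at 28 to 30 nt, 28.1% with the entry's own ends, 29.8% with a tolerance of 0 and 47.3% with 5, and sharing of the 5′ end (47.0%) was 27.96% with a tolerance of 0. Of the 69 fragments in all libraries, 40 were left at 28 to 30 nt and 32 with at least 2 reads in each library, and 100 to 121 were found in both of any 2 libraries. Leaving out a library gave 0 to 9 side calls, 0 to 4 on the 5′ and 0 to 5 on the 3′ side. The other ranges on leaving out a library were 3.89% to 8.02% for the share of the class, 42.6% to 49.8% and 34.6% to 38.8% for 5′ and 3′ end sharing, -1.30 to -1.23 and -0.56 to -0.20 for the log2 side ratio against 32 to 40 nt and 18 to 24 nt. With at least 10 reads in every library 2 of 7 snoRNAs were called 5′, with no minimum 3 of 129 were called 3′, and with TMM sizes 2 were called 3′. No replicate block, in place of library as block, gave 10 calls, 5 on each side, and 8 of the 9 were kept; SNORD78 was not called (edgeR adjusted p = 0.232). The libraries' numbers carry no pairing beyond both sides coming from 1 library. Leaving out SNORD78, SNORD44 and SNORD2, chosen after seeing the data, gave a side ratio of 0.28, 5′ and 3′ end sharing of 49.2% and 39.7%, and a class share of 3.93%.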
